A study of Drosophila melanogaster with 8 samples.

Results

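Neuropeptide receptor genes were examined in fly heads in which expression of a hexanucleotide repeat had been induced in neurons. The genes were chosen by name from 42 names of G-protein-coupled receptors for neuropeptides and peptide hormones. Of these names 36 were rows of the deposited table of 16727 genes. Another 4 names, Dh31-R1, DmsR-1, DmsR-2 and FR, are other names of the listed genes Dh31-R, MsR1, MsR2 and FMRFaR, and Lgr4 and CNMaR were not analysed here. All 36 genes passed the filter on low counts and were tested among 9905 genes.

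All flies were female and 7 d old and carried (G4C2)36 and elavGS, from stocks backcrossed to w1118 or to v-w1118. They thus held a run of 36 GGGGCC repeats, the expansion found in C9orf72, behind the GeneSwitch driver elavGS. The GeneSwitch protein acts in neurons and needs the drug RU486. The induced flies received 200 µM RU486 in their food for 5 d and the uninduced flies received ethanol for 5 d, with 4 libraries in each group and 15 heads pooled per library. No library had the drug without the repeat, so the drug and the repeat cannot be told apart. Whole heads were extracted, which hold brain neurons, glia, photoreceptors, fat body and other cells besides the neurons in which the driver acts. The labels name the libraries biological replicates but do not say which flies or vials were shared, so the p-values measure the spread between these libraries.

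Neuropeptides are cut from larger precursor proteins, released from neurons and gland cells, and detected by seven-transmembrane receptors at a distance from the site of release. Most of these receptors belong to the rhodopsin-like class, a small group resembles the vertebrate secretin receptors, and a further group carries a large leucine-rich repeat ectodomain. In the fly head they are known for their parts in feeding, sleep, courtship, water balance, moulting behaviour and the release of stored energy.

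The libraries held between 13247282 and 14962813 counts. Levels are given as CPM, counts scaled to the normalized library size. Within groups, uninduced library 4 differed more from the other uninduced libraries (chi-square per gene between 8.87 and 12.4) than these did from one another (between 3.77 and 3.94). Pairs of induced libraries gave values between 2.74 and 8.90. The neuron markers, such as elav, nSyb and Syt1, were present with overlapping summed levels (3532 to 3875 CPM uninduced, 3589 to 3838 CPM induced). Of the 12, 2 were higher and 4 lower in induced heads, led by Vmat (log2 fold change -0.31) and Cha (0.29), where 17.7% of all genes were higher and 18.8% lower. With library totals only in place of TMM normalization, 8 of the 12 were higher, where 45.3% of all genes were. The 4 lower calls were then lost.

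To ask which receptors changed with induction, each receptor gene was compared between the 4 induced and the 4 uninduced libraries. Of the 36 genes, 10 rose, 6 fell and 20 did not pass an adjusted p of 0.05 in edgeR's quasi-likelihood test. The largest rises were in the receptors for SIFamide, ecdysis-triggering hormone and neuropeptide F and in hec, a receptor gene paired with no ligand here, with folds of 12.5, 6.34, 3.36 and 4.22. The deepest fall was in AstC-R1, a receptor for allatostatin C, to 0.575 times the uninduced level.

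The 16 receptor genes past the threshold were 44.4% of the 36, where 36.5% of all genes tested passed it. The higher genes were 27.8% of the receptors against 17.7% of all genes, and the lower genes 16.7% against 18.8%. With a log2 fold change beyond 0.58 added, 8 receptor genes were higher, where 4.02% of all genes were, and 1 was lower, where 4.04% of all genes were. The libraries of both groups did not overlap for 15 receptor genes (41.7%), against 36.0% of all genes. The median log2 fold change of the receptors was 0.004 and that of all genes 0.001, whereas the median absolute log2 fold change was 0.371 among the receptors and 0.156 among all genes.

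The split between directions depended on the scaling. With library totals only the median log2 fold change of all genes moved to 0.178. Of the 36 receptor genes, 15 were then higher and 3 lower, where 45.3% of all genes tested were higher and 8.82% lower. In counts, 4488 of all genes were higher and 874 lower, against 1750 and 1866 with TMM. The share of higher receptor genes was then no longer above that of all genes. The 5 added receptor genes were PK1-R, PK2-R2, Dh31-R, Proc-R and rk, and the 3 that stayed lower were AstC-R1, AkhR and Dh44-R1. Without uninduced library 4, 10 receptor genes were higher and 8 lower, and without uninduced library 1 the counts were 9 and 3.

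**Figure D1:**
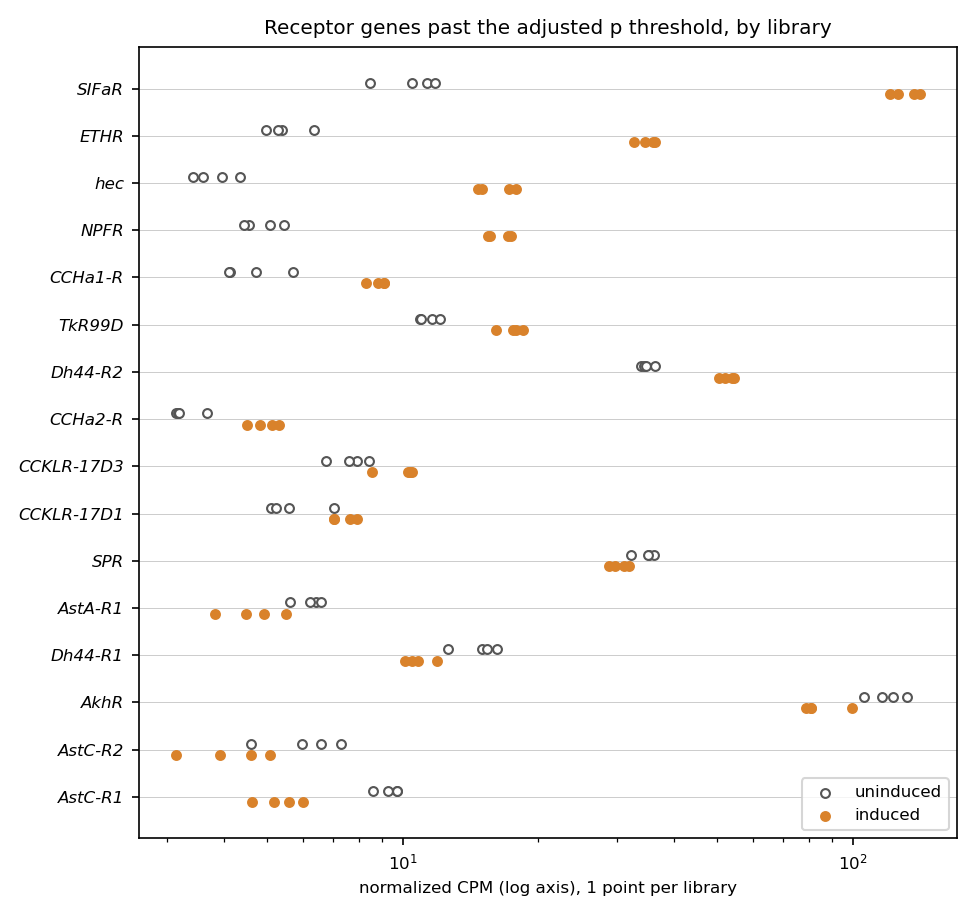
Level of each receptor gene past the adjusted p threshold, in normalized CPM on a log axis, with 1 open point per uninduced library and 1 filled point per induced library. SIFaR moved from between 8.48 and 11.8 CPM to between 121 and 141 CPM, and only CCKLR-17D1 and AstC-R2 of the 16 have libraries of both groups in a shared range.

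SIFaR, the receptor for SIFamide, a peptide made by a few neurons of the dorsal brain and known for roles in feeding, courtship and sleep, showed the largest rise of all receptors. Its level was 11.3, 10.5, 11.8 and 8.48 CPM in the uninduced libraries and 141, 121, 126 and 137 CPM in the induced ones. Every induced library was thus far above every uninduced one, and the spread within each group was small beside the gap. The means were 10.5 ± 1.46 and 131 ± 9.26 CPM (SD, n = 4 each), a log2 fold change of 3.64 (SE 0.08, adjusted p = 1.7e-12), which ranked 10 among the 9905 genes by fold change. The gene lies on chromosome 3R from 21276664 to 21293998 on the minus strand (dm6 coordinates), and its exons overlap those of no other annotated gene. These libraries come from whole heads, so more cells with a transcript and more transcript per cell cannot be told apart, here and for every gene that follows.

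NPFR is the receptor for neuropeptide F, the fly relative of vertebrate neuropeptide Y, known for roles in feeding and reward. It was measured at 4.56, 5.44, 5.07 and 4.43 CPM in uninduced heads and at 17.4, 15.6, 15.5 and 17.1 CPM in induced heads. The groups lay well apart. Its log2 fold change was 1.75 (SE 0.09, adjusted p = 5.2e-09), and it lies on 3R from 6187315 to 6195403.

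TkR99D, a tachykinin receptor known from olfactory and hormone-producing neurons, rose less. Uninduced libraries held 11.6, 12.1, 10.9 and 11.0 CPM and induced libraries 18.5, 17.9, 16.1 and 17.6 CPM, again without overlap. The log2 fold change was 0.62 (SE 0.07, adjusted p = 1.8e-05).

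The remaining 4 genes of this rhodopsin-like group did not pass the threshold. The short neuropeptide F receptor sNPF-R had a log2 fold change of 0.03 (SE 0.08), between 14.7 and 18.2 CPM uninduced and between 16.4 and 17.9 CPM induced. The leucokinin receptor Lkr, known from fluid balance, had -0.13, and TkR86C, the receptor for natalisin, -0.21. RYa-R, the RYamide receptor, had -0.63 with an SE of 0.31 at 8 to 22 counts per library. It passed only when uninduced library 4 was left out (log2 fold change -0.83, adjusted p = 0.0408, range over all alternatives 0.0408 to 0.382). Of its exon bases, 1.22% overlap a gene on the opposite strand that did not pass.

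ETHR, the receptor for the ecdysis-triggering hormone that starts the moulting sequence in larvae and is known to act on hormone-producing glands of adults, was the only gene of the pyrokinin, capa and ETH receptor group to pass. Uninduced libraries held 5.39, 5.28, 6.34 and 4.98 CPM and induced libraries 36.3, 32.6, 36.0 and 34.5 CPM. The lowest induced library was several times above the highest uninduced one. The log2 fold change was 2.66 (SE 0.08, adjusted p = 3.9e-11), ranking 26 among all genes tested.

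The rest of that group stayed under the threshold. PK1-R, a pyrokinin receptor, was between 2.93 and 3.50 CPM uninduced and between 3.67 and 4.27 CPM induced, so its libraries did not overlap, with a log2 fold change of 0.30 (adjusted p = 0.0899). The hugin receptors PK2-R2 and PK2-R1 had 0.40 and -0.05, and PK2-R2 passed without uninduced library 2 and with library totals only (adjusted p between 0.041 and 0.39 over all alternatives). CapaR, the capa receptor known from the renal tubules, had 0.14 at 7 to 15 counts per library.

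SIFaR and ETHR, the receptor genes with the largest folds, lie 11529 bases apart on 3R, where ETHR runs from 21247011 to 21265134 on the plus strand. Of the 5 tested genes between them, AP-2sigma (log2 fold change -0.30) and CG3301 (-0.70) were lower, and Rab1, CG5919 and CG3308 did not pass. With midpoints within 100 kb of that of SIFaR, 16 other tested genes had log2 fold changes between -0.70 and 0.85. Of these 16, 6 were higher and 2 lower, where 17.7% of all genes were higher and 18.8% lower. The neighbouring genes showed folds far below those of both receptors. Among other receptor genes that lie close together, PK2-R1 and PK2-R2 (4163 bases apart) and MsR1 and MsR2 (21748 bases apart) did not pass, whereas the pair of drosulfakinin receptor genes was higher and that of allatostatin C receptor genes lower.

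**Figure D2:**
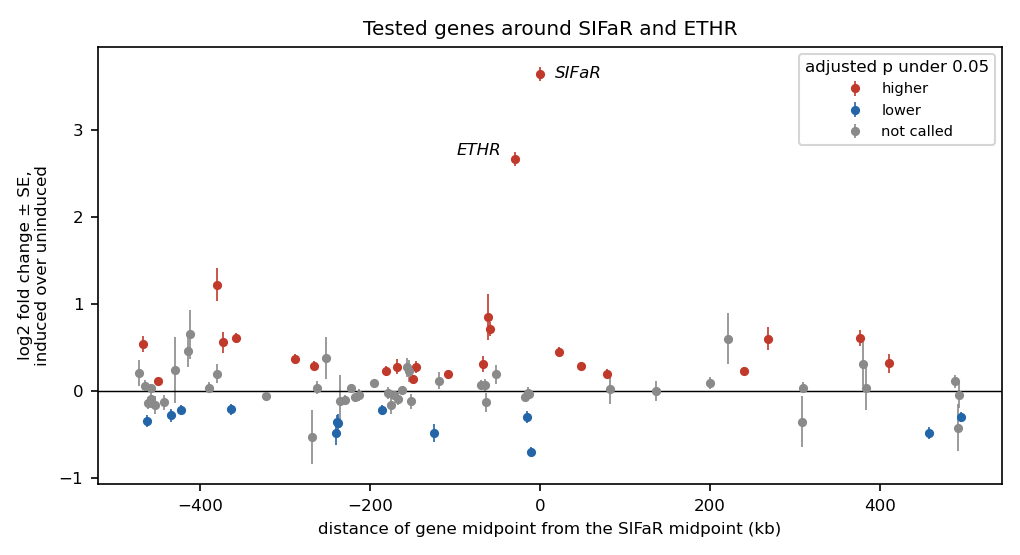
Log2 fold change, induced over uninduced, with its SE (bars) for each tested gene with its midpoint within 500 kb of that of SIFaR, against the distance of the gene's midpoint from that of SIFaR in kb. SIFaR (3.64) and ETHR (2.66) stand above the 84 other genes, of which the highest had 1.22.

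Secretin-like receptors moved in both directions. The gene hec (hector) encodes a relative of the calcitonin receptors and is known from male courtship. It stood at 3.96, 3.60, 4.36 and 3.42 CPM in uninduced heads and at 17.9, 15.0, 14.7 and 17.2 CPM in induced heads. The groups were far apart, with a log2 fold change of 2.08 (SE 0.11, adjusted p = 4.4e-09). It lies on X from 12950436 to 12957462.

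The receptors for diuretic hormone 44, the fly relative of vertebrate corticotropin-releasing factor, moved apart. Dh44-R2 rose from 33.8, 36.4, 34.3 and 34.8 CPM to 53.9, 52.1, 50.4 and 54.4 CPM, a log2 fold change of 0.60 (SE 0.05, adjusted p = 5.5e-07). Dh44-R1 fell from 16.2, 15.0, 15.4 and 12.6 CPM to 10.8, 10.5, 10.1 and 11.9 CPM, a log2 fold change of -0.45 (SE 0.09, adjusted p = 0.00147). In neither gene did the groups overlap. Exons of Dh44-R2 overlap those of CG34234 (16.8% of its exon bases) and fdl (16.4%) on the opposite strand, and both were higher too (0.92 and 0.20, the latter lost without uninduced library 1, induced library 3 or induced library 4). Without a stated strand setting their reads cannot be told apart in the shared bases. Dh31-R, the receptor for the calcitonin-like diuretic hormone 31, had 0.13 and did not pass.

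All 4 bombesin-like and cholecystokinin-like receptor genes were higher in induced heads, where 17.7% of all genes were. The group joins both receptor types and was drawn up with earlier results of these data known. The CCHamide receptors relate to vertebrate bombesin receptors, and CCHamide-2 is known as a nutrient signal to the insulin-producing cells of larvae. CCHa1-R was at 4.71, 4.13, 5.70 and 4.12 CPM uninduced and at 8.79, 9.10, 8.30 and 9.07 CPM induced, a log2 fold change of 0.92 (SE 0.11, adjusted p = 2.0e-05). CCHa2-R was at 3.67, 3.14, 3.17 and 3.19 CPM uninduced and at 5.31, 4.83, 4.50 and 5.11 CPM induced, with 0.58 (SE 0.12, adjusted p = 0.00148). Neither gene had an induced library within the uninduced range.

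The receptors for drosulfakinin, the fly cholecystokinin known as a satiety signal, rose less and lie 37910 bases apart on X. CCKLR-17D3 had 7.93, 8.42, 7.60 and 6.77 CPM uninduced and 10.4, 8.55, 10.3 and 10.5 CPM induced (log2 fold change 0.38, SE 0.10, adjusted p = 0.00892). Its induced library 2 came close to the highest uninduced library. CCKLR-17D1 had 5.09, 7.04, 5.23 and 5.60 CPM uninduced and 7.63, 7.03, 7.03 and 7.92 CPM induced, with 0.37 (SE 0.11, adjusted p = 0.0215). Uninduced library 2 reached the level of the lowest induced libraries. Its call was lost in DESeq2, in the exact permutation test (p = 0.0857) and without uninduced library 1, uninduced library 3 or induced library 4 (adjusted p up to 0.0656, range over all alternatives 0.00112 to 0.0656).

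**Figure D3:**
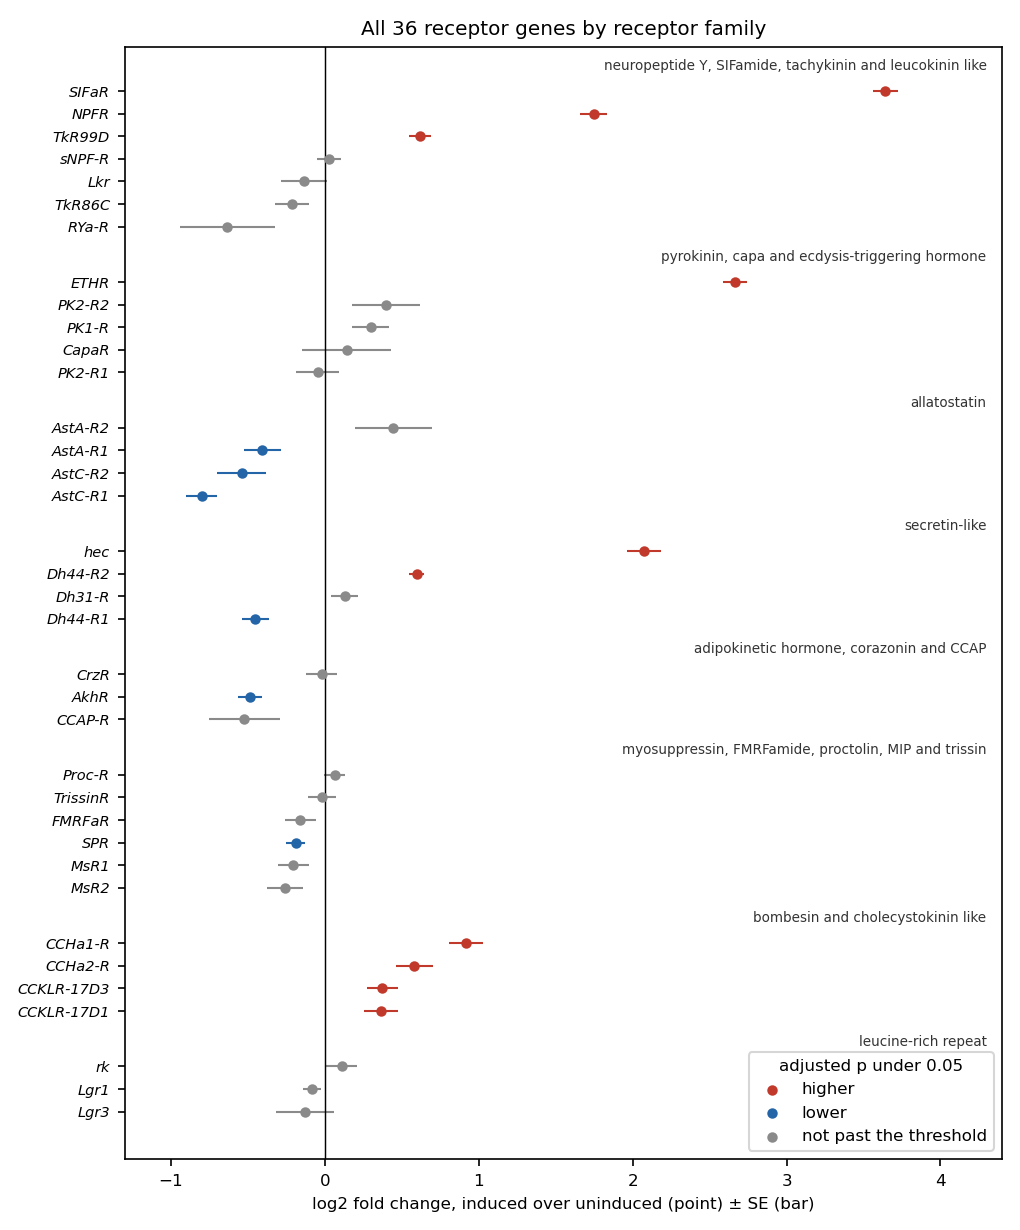
Log2 fold change, induced over uninduced, of all 36 receptor genes in receptor families, with points for the estimate and bars for its SE, coloured by adjusted p under 0.05. All 4 bombesin and cholecystokinin like genes are higher (17.7% of all genes were), though the call of CCKLR-17D1 was lost in some alternatives. Of the 4 allatostatin receptor genes 3 are lower (18.8% of all genes were), and with library totals only AstC-R1 alone stayed lower.

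Of the 4 allatostatin receptor genes, 3 fell, where 18.8% of all genes were lower. With library totals only, AstC-R1 alone of these stayed lower. The allatostatin C receptors resemble vertebrate somatostatin receptors and the allatostatin A receptors resemble galanin receptors. AstC-R1 was at 8.60, 9.72, 9.27 and 9.72 CPM in uninduced libraries and at 4.63, 5.17, 5.58 and 6.00 CPM in induced ones. All induced libraries lay under all uninduced ones, with a log2 fold change of -0.80 (SE 0.10, adjusted p = 2.8e-05). The gene lies on 3L from 18560258 to 18576326, and AstC-R2 lies 57700 bases away.

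AstC-R2 had 6.58, 5.97, 7.29 and 4.59 CPM uninduced and 3.13, 3.93, 5.07 and 4.60 CPM induced, a log2 fold change of -0.54 (SE 0.16, adjusted p = 0.0188). The groups overlapped, since uninduced library 4 lay within the induced range. AstA-R1 had 6.43, 6.58, 5.62 and 6.22 CPM uninduced and 3.82, 4.48, 5.51 and 4.92 CPM induced, with -0.41 (SE 0.12, adjusted p = 0.0183), and its groups just failed to overlap. AstA-R2 had 0.45 (SE 0.25) at 9 to 20 counts per library and did not pass. The call of AstC-R2 was lost with library totals only, in the exact permutation test (p = 0.0857) and without uninduced library 1, uninduced library 3 or induced library 1 (adjusted p up to 0.0769, range over all alternatives 0.00573 to 0.0769). That of AstA-R1 was lost in DESeq2, with library totals only and without uninduced library 1, uninduced library 2 or induced library 1 (up to 0.135, range over all alternatives 0.00787 to 0.135).

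AkhR, the receptor for adipokinetic hormone, the fly counterpart of glucagon, acts chiefly in the fat body, where it releases stored lipid. It was at 123, 106, 116 and 132 CPM in uninduced heads and at 81.0, 99.8, 78.7 and 81.0 CPM in induced heads. The groups did not overlap, and induced library 2 was the highest of its group. The log2 fold change was -0.49 (SE 0.08, adjusted p = 2.5e-04), and the gene lies on 2L from 6711286 to 6716186.

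Markers of the fat body were also lower in induced heads. Of 8 listed, 7 were tested and 6 fell (85.7%), where 18.8% of all genes did. Their summed level was 144459 to 155293 CPM in uninduced and 92316 to 117131 CPM in induced libraries, none was at 0 in all libraries, and the storage protein gene Lsp2 had a log2 fold change of -4.47 and the fatty acid synthase gene CG3523 -0.97. Within the induced group the marker sum was lowest in library 2 (92316 CPM), the library with the highest AkhR level. The part of the fat body in the fall of AkhR was not tested. Hemocyte markers were also lower, with 4 of 5 tested genes down (80.0%, where 18.8% of all genes were), led by NimC1 (-0.93) and Hml (-0.65). Their summed level was 272 to 296 CPM against 205 to 264 CPM. With library totals only, 3 of them stayed lower. Induced library 3 stood apart, at 51.3 CPM for Hml and 10.7 CPM for NimC1 against 22.0 to 26.8 and 4.07 to 5.25 CPM in the other induced libraries. Without it the log2 fold changes were -1.02 for Hml and -1.33 for NimC1. Both calls were lost in DESeq2, in the exact permutation test and without uninduced library 1, and that of Hml also without induced library 1, 2 or 4.

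The other receptors of this group, related to the vertebrate gonadotropin-releasing hormone receptors and to vasopressin-like receptors, did not pass. CrzR, the receptor for corazonin, a stress peptide, had -0.02 with 15.3 to 20.2 CPM uninduced and 15.1 to 18.9 CPM induced. CCAP-R, the receptor for crustacean cardioactive peptide, had -0.52 (SE 0.23, adjusted p = 0.0917, range over all alternatives 0.0294 to 0.251) at 13 to 25 counts per library, and passed only without induced library 1.

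SPR, which binds sex peptide and the myoinhibitory peptides and is known from the behaviour of females after mating, fell slightly. It had 35.3, 36.1, 32.1 and 35.0 CPM uninduced and 29.6, 31.1, 31.9 and 28.8 CPM induced. The groups were separated by a narrow gap between uninduced library 3 and induced library 3. The log2 fold change was -0.19 (SE 0.06, adjusted p = 0.0205), and it was -0.01 with library totals only. The call was also lost without uninduced library 1, uninduced library 2, induced library 1 or induced library 4 (adjusted p up to 0.883, range over all alternatives 0.0132 to 0.883), and 26.8% of its exon bases overlap frma on the opposite strand, which was lower too (-0.47).

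The myosuppressin receptors MsR1 and MsR2, whose ligand slows visceral muscle, had -0.20 and -0.26, with adjusted p values of 0.111 and 0.102. The FMRFamide receptor FMRFaR had -0.16, the proctolin receptor Proc-R 0.06 and TrissinR, the receptor for the cysteine-rich peptide trissin, -0.02. None of these 5 passed. MsR1 passed only when uninduced library 4 was left out (adjusted p = 0.0468, range over all alternatives 0.0468 to 0.832).

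The leucine-rich repeat receptors resemble the vertebrate glycoprotein hormone and relaxin receptors. Lgr1, for the thyrostimulin-like hormone, had -0.08, with 29.9 to 33.1 CPM uninduced and 29.5 to 31.2 CPM induced. The bursicon receptor gene rk, needed for hardening of the cuticle, had 0.11 and Lgr3, the receptor for the growth-coordinating peptide Ilp8, -0.13. Their adjusted p-values were 0.273, 0.451 and 0.638. Exons of Lgr3 overlap those of other genes on the opposite strand, for 29.7% of its exon bases in the largest case. Of the exon bases of rk, 9.78% are shared in the same way. None of these other genes passed, and reads in the shared bases cannot be told apart.

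To compare levels between genes, CPM was divided by exon length. In uninduced heads AkhR was the highest receptor gene at 37.4 ± 3.44 CPM per kb (SD, n = 4), followed by Dh44-R2 at 10.6, Lgr1 at 9.95 and SPR at 9.28 CPM per kb. The ranges of AkhR and Dh44-R2 over libraries were each clear of the next gene, whereas the ranges of Lgr1, SPR, Dh31-R and Proc-R each overlapped that of the next of these genes. Below these came Dh44-R1, CrzR and TkR99D at 5.99, 5.46 and 3.96 CPM per kb. From rk (2.18 CPM per kb) down to Lgr3 (1.02 CPM per kb) each gene's range overlapped that of its neighbour. The lowest were CCAP-R, RYa-R, PK2-R2, CapaR and AstA-R2, between 0.343 and 0.541 CPM per kb.

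SIFaR took place 16 in this order in uninduced heads at 2.09 ± 0.291 CPM per kb and place 2 in induced heads at 26.1 ± 1.84 CPM per kb, beside AkhR at 26.7 ± 3.09 CPM per kb. ETHR went from place 28 to place 8, hec from 25 to 9 and NPFR from 24 to 12. Summed over the 36 genes, receptor counts were 464 to 489 CPM in uninduced and 617 to 642 CPM in induced libraries. SIFaR made up 1.83% to 2.49% of that sum in uninduced and 19.1% to 22.2% in induced libraries, and without it the sums were 455 to 478 and 491 to 514 CPM. AkhR went from 22.2% to 28.5% of the sum to 12.6% to 15.7%.

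**Figure D4:**
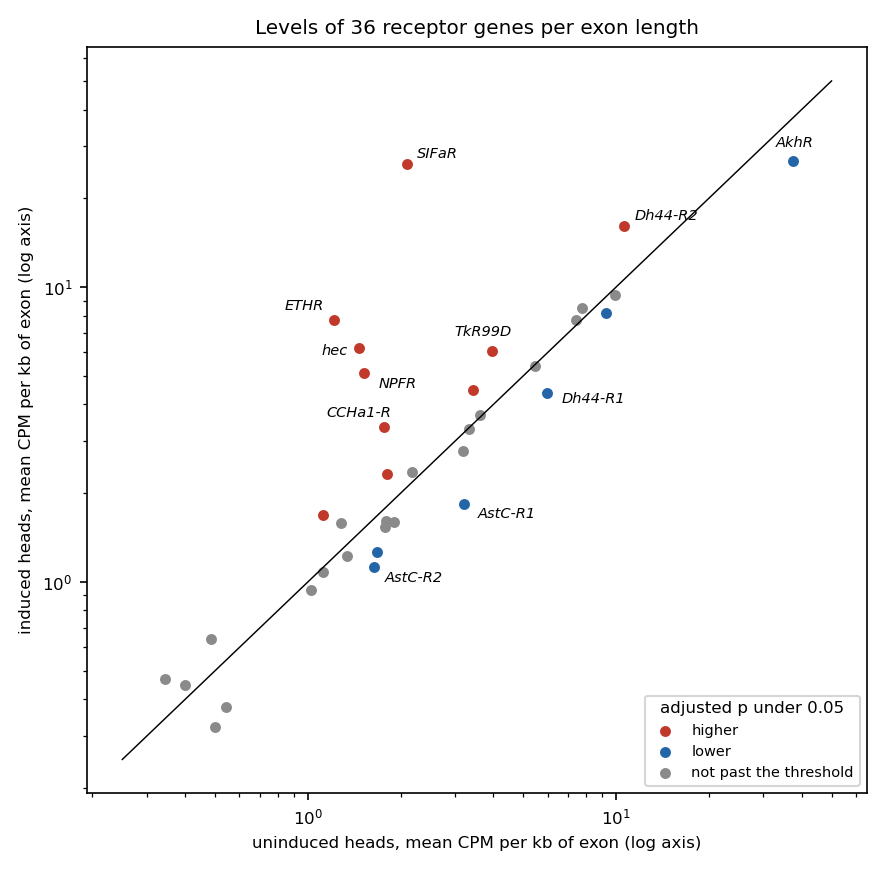
Mean CPM per kb of exon of each receptor gene in induced (vertical) against uninduced heads (horizontal), both on log axes, with the line of equal level and colours for adjusted p under 0.05. SIFaR (2.09 to 26.1 CPM per kb) lies furthest above the line, and AkhR (37.4 to 26.7 CPM per kb) is the gene at the upper right below it.

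Each receptor was set beside the precursor gene of its ligand in the same libraries. Of 33 ligand precursor genes listed, 25 were tested, 4 were higher and 17 lower (84.0% past the threshold, against 36.5% of all genes), with a median log2 fold change of -0.36. The counts became 6 higher and 11 lower with library totals only, where 45.3% of all genes were higher and 8.82% lower. The largest rise was in AstCC, a paralog of AstC that was paired with no receptor here, at 1.76 with 4 to 28 counts per library. SIFa fell from 7.71, 8.27, 9.59 and 9.64 CPM to 1.50, 1.03, 1.46 and 1.47 CPM, a log2 fold change of -2.68 (SE 0.14, adjusted p = 6.4e-09). The receptor for SIFamide was therefore up and its ligand gene down in every induced library.

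Of 34 receptor and ligand pairs, 30 had a tested ligand gene and 10 had both genes past the threshold. In 9 of these 10 the directions were opposite. Among all tested ligand genes 17 were lower and 4 higher, and among the receptor genes 10 were higher and 6 lower. Opposite pairs can thus be frequent without any link between partners, and the share to expect from this was not computed. The higher receptors SIFaR, ETHR, NPFR, CCHa1-R, CCHa2-R and TkR99D stood beside lower ligand genes, namely SIFa, ETH (-0.81), NPF (-0.36), CCHa1 (-0.57), CCHa2 (-1.35) and Tk (-0.20). The lower receptors AstC-R1, AstC-R2 and SPR stood beside the higher ligand genes AstC (0.29) and Mip (0.26), and AstA-R1 was lower together with AstA (-0.20). The count was made after these values had been seen and has no test, and it rests on 8 different ligand genes. It varied between 7 and 9 opposite pairs and between 0 and 2 pairs of the same direction over the alternatives. The pairs counted were not always the same. Scaled by library totals only, the pairs of NPFR, TkR99D, AstC-R2 and SPR were no longer called in opposite directions. PK1-R with Capa, PK2-R2 with Hug and Dh44-R1 with Dh44 then were. Dh44-R2 with Dh44 and Proc-R with Proc were then higher together. With library totals only, Tk (-0.03, adjusted p = 0.717), NPF (-0.18, adjusted p = 0.053) and AstA (-0.03, adjusted p = 0.783) no longer passed. Over all alternatives their adjusted p ranged from 0.00412 to 0.717, from 5.3e-04 to 0.053 and from 0.0109 to 0.783. ETH, at 8 to 19 counts per library, lost its call in DESeq2 and without uninduced library 2, and AstA also lost its call without uninduced library 2, uninduced library 3 or induced library 1.

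The ligand genes of most receptors that did not pass were lower as well. Crz had -0.99, sNPF -0.68, Hug -0.64, FMRFa -0.61, Capa -0.43, Ms -0.41, Gpb5 -0.31 and Dh31 -0.17. The calls of Gpb5 and Dh31 were each lost in DESeq2 and in most fits that left out a library. CCAP had -1.44 at 2 to 26 counts per library. CG13936, the gene of CNMamide, whose receptor was not analysed here, had -0.72 and lost its call with library totals only, in the exact permutation test and without uninduced library 1, induced library 1 or induced library 3. Gpa2, whose product is the partner of Gpb5 in the hormone of Lgr1, had 8 to 20 counts in uninduced and 1 to 2 in induced libraries and did not pass the filter. Proc, the proctolin gene, went the other way, with 59.4, 60.8, 66.2 and 58.8 CPM uninduced and 132, 140, 126 and 130 CPM induced (log2 fold change 1.11, SE 0.05, adjusted p = 1.6e-09), while Proc-R had 0.06. Dh44, Dsk, Lk and Trissin did not pass.

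**Figure D5:**
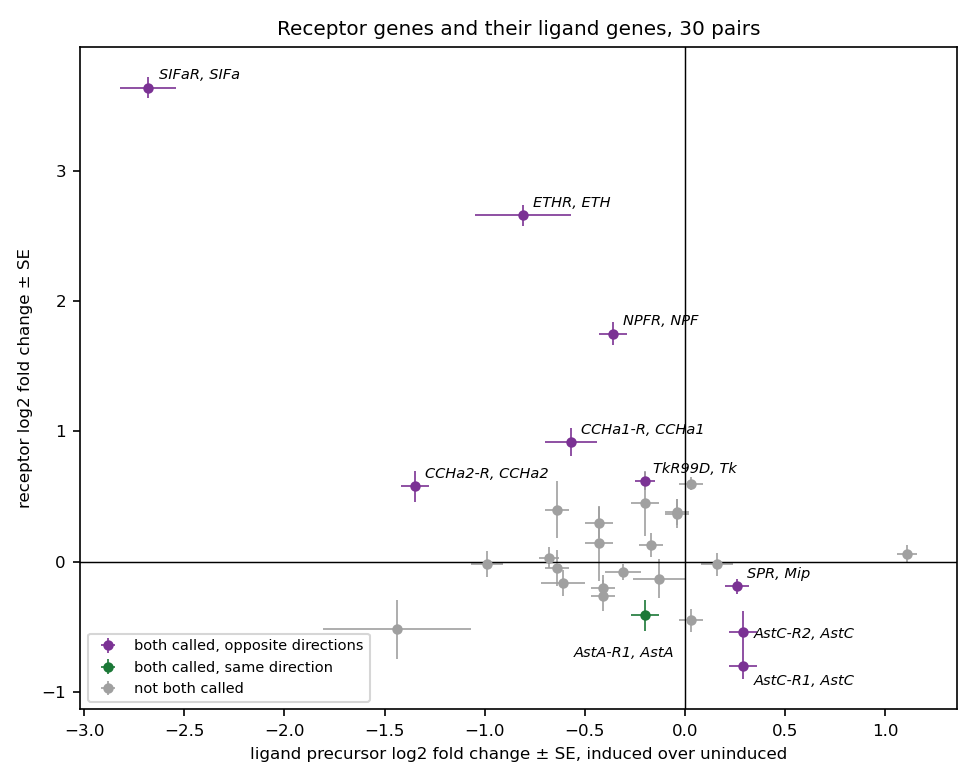
Log2 fold change, induced over uninduced, of each receptor gene (vertical) against that of its ligand precursor gene (horizontal), with SE bars, for the 30 pairs with a tested ligand gene. The 9 pairs with both genes past the threshold in opposite directions lie at the upper left and lower right, with SIFaR and SIFa at 3.64 and -2.68.

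Genes of G-protein signalling in general were read from the same fit. The list is not limited to partners of the peptide receptors, and some of its genes were also counted as photoreceptor markers. Of 35 genes of heterotrimeric G proteins, adenylate cyclases, phospholipases and kinases, 5 were higher and 8 lower (37.1% past the threshold, against 36.5% of all genes), with a median log2 fold change of -0.05. Scaled by library totals only, 17 were higher, where 45.3% of all genes were, and the 8 lower calls were lost. Pka-R1, a regulatory subunit of protein kinase A, had 0.93 and the phospholipase C gene Plc21C 0.58. Among 24 tested receptor genes for amines and other small transmitters, 7 were higher and 5 lower (50.0% past the threshold, against 36.5% of all genes). With library totals only 14 were higher and 3 lower, where 45.3% of all genes were higher and 8.82% lower. AdoR, the adenosine receptor gene, rose from 7.63, 7.43, 8.63 and 6.84 CPM to 37.5, 30.7, 37.5 and 33.0 CPM (log2 fold change 2.18, SE 0.09, adjusted p = 7.6e-10). The tyramine receptor gene TyrR followed with 0.84 (SE 0.20). Its groups overlapped, since induced library 3 (11.7 CPM) lay within the uninduced range (9.88 to 13.3 CPM). TyrR did not pass in the exact permutation test (p = 0.0571).

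Markers of other head cells were read beside the receptors. Peptidergic cell markers, which process and release neuropeptides, summed to 3449 to 3712 CPM uninduced and 4551 to 4859 CPM induced. Of these, 3 of 7 were higher and 1 lower, led by the prohormone convertase gene amon (0.70) and by IA-2 (0.54). Most of the rise in this sum lay in IA-2, at 2171 to 2344 CPM uninduced and 3139 to 3349 CPM induced. Glial markers summed to 2015 to 2121 CPM and 1772 to 1913 CPM, with 4 of 9 higher and 3 lower. The largest changes were in Eaat1 (-0.88) and moody (-0.43). Most of the fall in this sum lay in Eaat1, at 447 to 457 CPM uninduced and 237 to 256 CPM induced. The calls of Gli (lower, adjusted p = 0.0495), alrm (higher, 0.0445) and axo (higher, 0.0442) were marginal. Each was lost in DESeq2 and in most fits that left out a library. Photoreceptor markers (3 of 13 higher, 2 lower, led by Rh4 with -0.39 and ninaA with -0.24) and muscle markers (1 of 7 higher, led by Act88F with 1.01 and Act57B with -0.08) had overlapping sums in both groups. Past the threshold were 57.1% of the peptidergic, 77.8% of the glial, 38.5% of the photoreceptor and 14.3% of the muscle markers, against 36.5% of all genes. With library totals only, 5 peptidergic, 5 glial, 9 photoreceptor and 4 muscle markers were higher, where 45.3% of all genes were. Then 1 peptidergic, 2 glial and 1 photoreceptor marker were lower, where 8.82% of all genes were. The part of these cells in the receptor values was not tested.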

How the data were processed

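RNA from 8 pools of 15 heads was measured by paired-end sequencing of polyA RNA. The authors aligned the reads to Dm6 and deposited raw counts per gene and library. Which aligner, counter, annotation and strand setting were used is not given in the sources used here. Also in the table are the authors' normalized values and their DESeq2 fold changes and p-values, which were not used.

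The members, families and lists were chosen with earlier results of these data known. Every receptor gene was named, with values per library for those past the threshold. From each other list the 2 tested genes with the largest absolute fold change were named, as were the ligand genes paired with a receptor. Some genes were named after their values were seen. These were the genes between SIFaR and ETHR, those named as sharing exons with a receptor gene, the glial markers Gli, alrm and axo, and the ligand genes CG13936 and Gpa2.

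The quasi-likelihood test of edgeR 4.0.16 (R 4.3.3) was fitted to the counts of all genes after filterByExpr and TMM normalization, with Benjamini-Hochberg adjustment across the 9905 genes kept. Adjusted p-values given without a tool come from it. The SE of a fold change was derived from its F statistic and is approximate. The test was checked on simulated counts. Exact two-sided permutation tests of log2(CPM + 0.1) cannot go below p = 0.0286 with 4 against 4 libraries. Coordinates and merged exon lengths are from Ensembl's BDGP6 annotation. Between 13247282 and 14962813 counts per library were available, so values of genes with few counts are the least precise. Alternatives were DESeq2 1.42.0, other normalizations, other filters, a replicate block and leaving out each library.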

Additional observations from a re-analysis of the deposited data

Results flagged for a closer look

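Each group of 4 libraries of each receptor gene was searched for a library whose gap to its nearest neighbour divided by the group's range exceeded Dixon's critical value. This held in 5 of 72 groups, where chance alone gives about 1 in 20, or 3.60.

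For sNPF-R, uninduced library 4 lay at 14.7 CPM with the others between 17.7 and 18.2 CPM, and induced library 2 at 16.4 CPM with the others between 17.7 and 17.9 CPM. For AkhR, induced library 2 lay at 99.8 CPM with the others between 78.7 and 81.0 CPM. For CCKLR-17D3, the same induced library lay at 8.55 CPM with the others between 10.3 and 10.5 CPM. For CCHa2-R, uninduced library 1 lay at 3.67 CPM with the others between 3.14 and 3.19 CPM.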

How the results depend on the processing

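Of the 16 receptor genes past the threshold, 12 kept their call and direction under every alternative run, and no called receptor gene changed sign. Libraries of the same number did not deviate together (correlations of same-numbered deviations -0.0652 to 0.0251), which cannot show whether they were paired by design. The fit with a replicate block gave 10 higher and 6 lower receptor genes. DESeq2 gave 9 and 5. Leaving out a library gave 9 to 11 higher and 3 to 8 lower. With library totals only, 15 were higher and 3 lower, where 45.3% and 8.82% of all genes were, and the median of the receptors was 0.180. Among the genes named here, log2 fold changes that then turned positive, none of receptor genes past the threshold, were CrzR 0.159, Lkr 0.042, FMRFaR 0.017, PK2-R1 0.130, TrissinR 0.158, Lgr1 0.094, Lgr3 0.050, and, among other genes, Dh31 0.003 (called lower with TMM), Lk 0.051, Dsk 0.141, Rab1 0.112, CG5919 0.159, CG3308 0.153 and Act57B 0.096. Leaving out a library, the sign also varied for sNPF-R (-0.032 to 0.065), CrzR (-0.074 to 0.059), PK2-R1 (-0.092 to 0.019), TrissinR (-0.055 to 0.049), Lgr3 (-0.233 to 0.006), Dsk (-0.067 to 0.025), CG5919 (-0.053 to 0.035) and CG3308 (-0.051 to 0.002). The cause was not tested. Depth limits genes with few counts, such as CapaR, AstA-R2, RYa-R, PK2-R2, CCAP-R, ETH, AstCC and CCAP, which had 2 to 33 counts per library.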
